A study of Mus musculus with 12 samples.

Results

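The comparison was between low protein diet and control diet in sperm of male mice heterozygous for Atf7 (ATF7+/-). Its members were all 2971 tRNA fragment sequences of the small RNA table, 2971 of 2971, read in 6 of the series' 12 libraries, 3 per diet. Both groups were ATF7+/- males, kept on their diet from week 3 to week 12 of age. The groups are named here control diet and low protein diet, and the other 6 libraries are wild type males on the same diets. RNA came from histone replacement-completed sperm, the heads that sediment through 82% Percoll after mild sonication and have exchanged histones for protamines. The labels give neither the Atf7 allele nor the number of males behind a library, so p-values measure only the spread between libraries, which may be technical. The table lists tRNA fragments alone and has no gene marker with which to check the cell type.

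Transfer RNAs carry amino acids to the ribosome, and their middle loop holds the anticodon that reads the messenger RNA. Cleavage in or near that loop leaves 5′ fragments, which are known to be abundant in mature mouse sperm, those of glycine and glutamate tRNAs above all. Mammalian sperm gain part of this RNA in the epididymis, and the amounts of such fragments in sperm have been studied as a record of a father's diet. ATF7 is a transcription factor of the ATF2 family that responds to stress and is known for recruiting histone methyltransferases to chromatin.

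The fragments were grouped by their bases into 19 tRNA families, 11 of which could be named by anticodon and 8 by their first bases. A fragment is called complete where it starts at the tRNA's first base (2290 sequences), extended where it starts before it (122) and trimmed where it lacks first bases (559). Histidine tRNA carries an added base before its first. The 115 complete His-GTG sequences therefore lack that base but are not counted as trimmed, and 105 of the 122 extended sequences are of this family. Positions count bases from the first base of the tRNA. Reads were 36 bp long and the longest sequence has 36 nt. A sequence of that length may therefore come from a longer fragment, and its last base need not be the fragment's end. Levels are in RPM, read counts scaled to 1 common total for every library, so they are shares of a library, and less RNA of a kind per sperm cannot be told apart from fewer sperm that carry it.

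In ATF7+/- sperm 3 of the 2971 sequences differed between the diets by edgeR's quasi-likelihood test at an adjusted p under 0.05, which is 0.101% of those tested. A pair of valine tRNA fragments rose on low protein diet, and a glycine tRNA fragment without its first bases fell. No family total differed. The valine fragments end at base 34, which in this family is the first base of the anticodon. The sequences are shown so that their ends can be compared, with capitals at each base that differs from the most read base of the family at that position.
Val-CAC, last base A, rose: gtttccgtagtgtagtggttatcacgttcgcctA
Val-CAC, last base T, rose: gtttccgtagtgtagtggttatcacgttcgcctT
Val-CAC, last base C: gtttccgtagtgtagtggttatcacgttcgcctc
Val-CAC, last base G: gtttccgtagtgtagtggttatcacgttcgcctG
Val-CAC, 1 base shorter: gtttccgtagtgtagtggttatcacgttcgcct
Val-CAC, most abundant: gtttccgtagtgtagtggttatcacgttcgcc
Gly-TCC, trimmed, fell: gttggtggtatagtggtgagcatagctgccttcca
Gly-TCC, most abundant: gcgttggtggtatagtggtgagcatagctg

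The fragments were not given single genome positions, because several genes carry the same bases. RefSeq's mouse annotation (assembly GRCm38.p6) lists 11 nuclear genes for Val-CAC, 8 for Val-AAC, 3 for Val-TAC and 7 for Gly-TCC. It lists none for a valine tRNA with G as the first anticodon base. In the grouping by bases, Val-TAC fragments formed a family of their own, apart from the valine fragments shown. Each of these genes is a non-coding tRNA gene, with no coding exon or UTR.

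The valine fragment that ends in A (C34A) stood at 19.9, 19.4 and 17.7 RPM in the control libraries and at 45.8, 63.2 and 64.6 RPM on low protein diet. All 3 low protein libraries lay above all 3 control libraries. On the log2 scale this was a rise by 1.60 (SE 0.25, n = 3 per diet), which passed edgeR's quasi-likelihood test with an adjusted p of 0.0465. These levels rest on 39 to 111 reads per control library and 221 to 436 reads per low protein library.

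The valine fragment that ends in T (C34T) had 30.3, 34.2 and 40.9 RPM in the control libraries and 89.7, 163 and 163 RPM on low protein diet. Low protein replicate 1 was the lowest of its group, still above every control library. On the log2 scale it rose by 1.99 with an SE of 0.33, and edgeR gave the same adjusted p of 0.0465. Neither call is made without control replicate 1 or 2, low protein replicate 2 or 3 or wild type control replicate 2. The same holds without any 1 wild type low protein library, since no sequence passes in any of these fits. The log2 fold change without single libraries still stays between 1.51 and 1.74 for A and between 1.85 and 2.22 for T. Scaling by TMM or limma on log2(RPM + 1) ends both calls as well.

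The same fragment with C, the most read base, was the most abundant of those ending at base 34. It measured 226, 187 and 224 RPM on control diet and 489, 886 and 808 RPM on low protein diet, with no overlap. Its log2 fold change of 1.78 was of the same order as that of the A and T forms, but its spread was larger (SE 0.41) and it did not pass (adjusted p = 0.180 by edgeR). The form that ends in G (C34G) overlapped between the diets, at 123, 94.2 and 56.9 RPM against 163, 100 and 126 RPM, with a log2 fold change of 0.50 (SE 0.29, adjusted p = 0.365 by edgeR). As background, the first anticodon base of Val-AAC is known to be changed to inosine, which sequencing reads as G.

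Going back along the valine tRNA, the fragment that is 1 base shorter had 2022, 1399 and 801 RPM against 2004, 2089 and 2426 RPM. The diets overlapped there, with a log2 fold change of 0.63 (SE 0.29, adjusted p = 0.295 by edgeR). The most abundant valine fragment, another base shorter, gave 7870, 5711 and 3059 RPM against 5661, 5142 and 5995 RPM, a log2 fold change of 0.01 (SE 0.31). Control replicate 3 held the least of both.

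**Figure D1:**
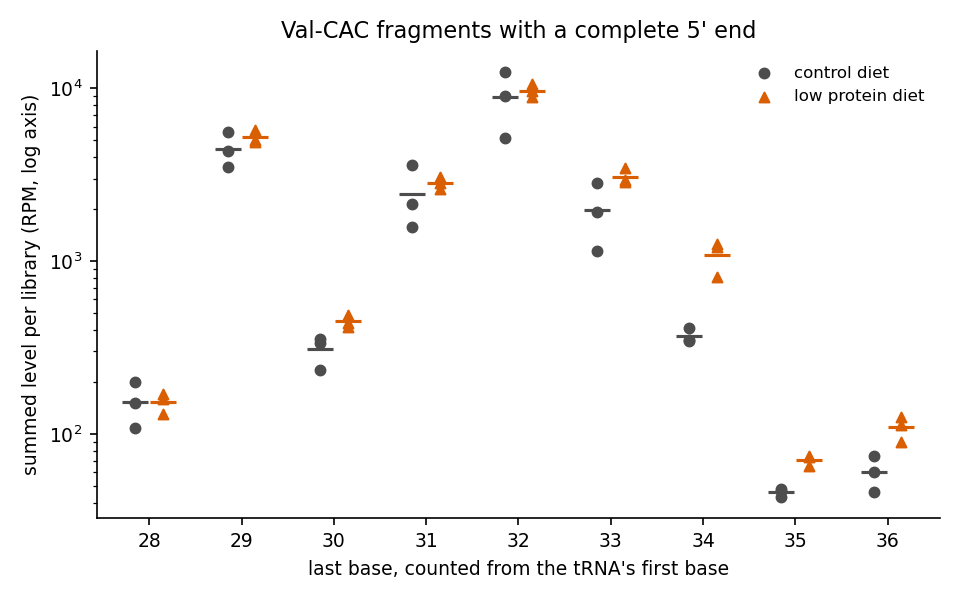
Summed level of complete Val-CAC fragments (RPM, log axis) by last base, for the 3 control diet (circles) and 3 low protein diet (triangles) ATF7+/- libraries, with bars at the group means. The libraries separate at base 34, where the lowest low protein library holds 810 RPM and the highest control library 413 RPM, though this sum did not pass. They also separate at bases 30, 33, 35 and 36, and they overlap at base 32.

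To see whether the single valine sequences stood for their end point, complete Val-CAC reads were summed by last base, a summary chosen after the data had been seen. Those ending at base 34 (9 sequences) came to 413, 347 and 351 RPM on control diet and 810, 1251 and 1205 RPM on low protein diet. This sum had a log2 fold change of 1.56 (SE 0.36, adjusted p = 0.107 by edgeR) and did not pass. None of the 233 sums by end point passed (0%), where the smallest adjusted p was 0.0520 and 35 were under an unadjusted p of 0.05. The log2 fold change of the complete Val-CAC sums was 0.22 at base 29, 0.54 at base 30, 0.21 at base 31, 0.13 at base 32, 0.65 at base 33, 0.63 at base 35 and 0.86 at base 36. Those at bases 30, 33, 35 and 36 also did not overlap between the diets, at base 33 by a narrow margin. The share without overlap among all 233 sums is not given here. Among single sequences, 13% had all 3 low protein libraries above all 3 control libraries. Base 36 is also where a complete fragment fills the whole read.

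As a share of complete Val-CAC reads, the reads ending at base 34 made up 1.70, 1.99 and 2.42% on control diet and 3.72, 5.81 and 4.86% on low protein diet. An exact permutation test gave p = 0.1, the smallest that 3 libraries against 3 allow, so no such share could pass (adjusted p = 0.373 over the 56 shares computed). Among the reads ending at base 34, the share with G was 31.2, 28.2 and 16.7% against 20.8, 8.41 and 11.1%, and the share with C was 56.7, 56.3 and 66.5% against 62.5, 73.5 and 70.0%. Both overlapped between the diets. A made up 4.82 to 5.61% on control diet and 5.05 to 5.65% on low protein diet, ranges that overlap. T made up 7.34, 9.86 and 11.7% on control diet and 11.1, 13.1 and 13.5% on low protein diet, also with overlap.

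The sequence that fell was a Gly-TCC fragment of 35 nt that starts at base 3 and ends at base 37, just behind the anticodon at bases 34 to 36. It stood at 9.14, 8.68 and 6.82 RPM on control diet and at 3.31, 1.60 and 1.93 RPM on low protein diet, without overlap. It fell by 1.89 on the log2 scale with an SE of 0.32, at an edgeR adjusted p of 0.0465. It is a rare fragment, with 15 to 51 reads per control library and 11 to 16 per low protein library, against limits of 0.437 to 1.36 RPM that a count of 0 (3 reads) allows in these libraries. It was also the only class called when the reads were summed into 89 classes by family, 5′ end and 3′ end (1.12%), where the class of trimmed Gly-TCC ending at base 34 or later held this sequence alone (adjusted p = 0.0199 by edgeR). The most abundant Gly-TCC fragment overlapped between the diets, at 301, 347 and 281 RPM against 381, 281 and 324 RPM.

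Without 1 of several libraries or under TMM scaling this call is lost together with the valine ones, and with only sequences of at least 10 RPM it is not tested. Without control replicate 3, edgeR called 71 sequences, among them the 3 named here. That library was the shallowest of the 6, with 2198744 reads against 4828916 to 6870039 in the others. On the log2 scale it correlated less with the other control libraries (r = 0.899 and 0.918 across sequences, which are not independent replicates) than with the low protein libraries (r = 0.936 to 0.958). Counts of replicates differed with 23.2 to 164 times the variance of sampling noise in these 6 libraries, and no library was counted as a copy of another.

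**Figure D2:**
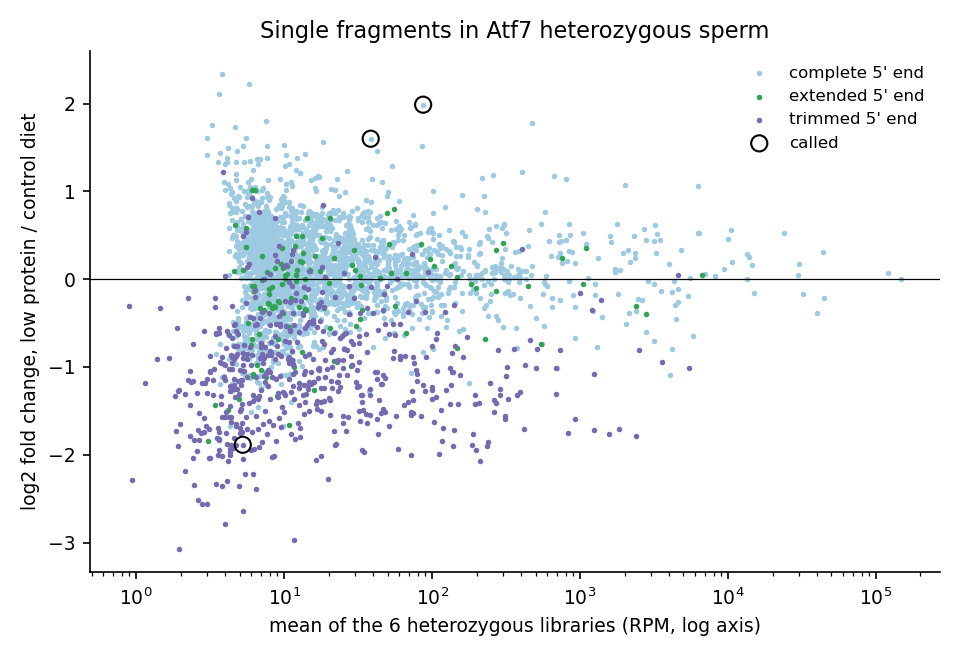
Log2 fold change (low protein over control diet) of each of the 2971 sequences against its mean over the 6 ATF7+/- libraries (RPM, log axis), coloured by 5′ end, with rings around the 3 called sequences. Most trimmed fragments lie below 0, and the rings mark 2 complete valine fragments above and 1 trimmed glycine fragment below.

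Fragments were then compared by where they start. Trimmed fragments were mostly lower on low protein diet, with a median log2 fold change of -1.11 over all 559, 528 of them negative. The median was 0.15 for complete fragments, -0.07 where fragments were extended, and 0.03 over the whole table. Of the trimmed sequences 1 was called, and 214 were lower at an unadjusted p under 0.05, where the share over all sequences was 9.26%. In 183 of them (32.7%) all 3 low protein libraries lay below all 3 control libraries, against 8.25% of all sequences. Leaving out 1 library at a time moved the trimmed median between -0.80 (without control replicate 1) and -1.47 (without low protein replicate 1).

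Trimmed reads made up 9.54, 7.46 and 4.43% of the table's reads on control diet and 4.94, 2.43 and 3.48% on low protein diet. Control replicate 3 lay below low protein replicate 1, so the groups overlapped (exact permutation p = 0.2). The mean was 7.15% ± 2.57 (SD, n = 3) against 3.62% ± 1.26 (SD, n = 3). Reads that lack exactly 1 base followed the same order, at 6.65, 5.23 and 2.82% against 3.61, 1.81 and 2.56%.

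Reads that lack 2 bases were 2.53, 1.94 and 1.14% of the table on control diet and 1.13, 0.486 and 0.748% on low protein diet, where control replicate 3 and low protein replicate 1 almost met. Those that lack 3 or more bases were 0.364, 0.297 and 0.475% against 0.209, 0.135 and 0.166%, and here control replicate 3 was the highest library. Both gave an exact permutation p of 0.1, the smallest possible (adjusted p = 0.373 over 56 shares). In wild type the diets did not overlap either, at 4.44, 2.25 and 1.03% against 0.720, 0.808 and 0.957% for 2 bases and at 0.629, 0.330 and 0.330% against 0.258, 0.244 and 0.261% for 3 or more.

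**Figure D3:**
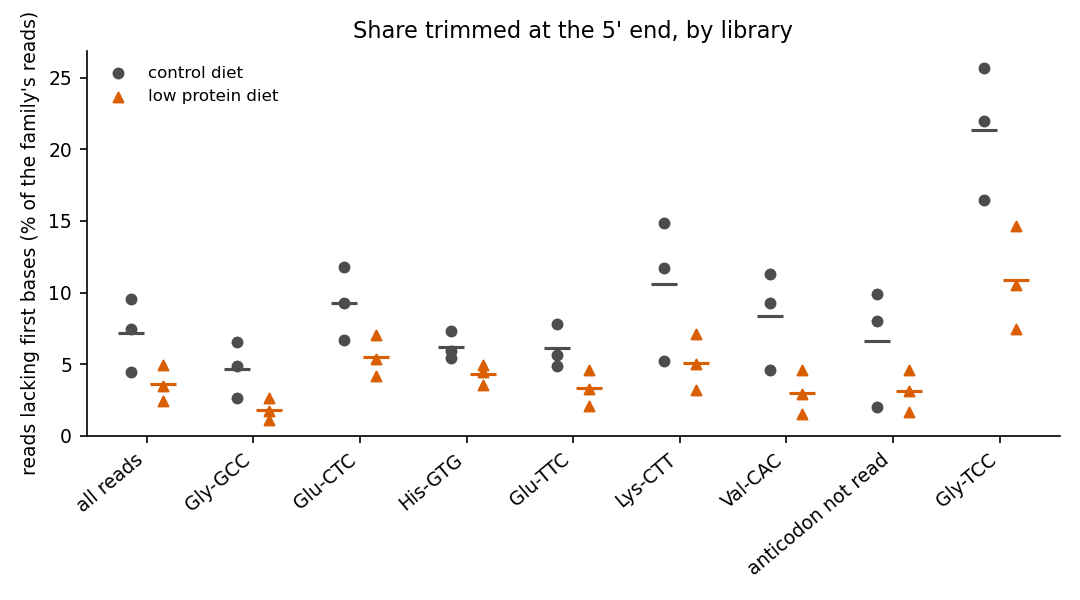
Percentage of reads that lack first bases, over all reads and within each of the 8 most abundant tRNA families, in the 3 control diet (circles) and 3 low protein diet (triangles) ATF7+/- libraries, with bars at the group means. The low protein mean is lower in every family shown, while the libraries overlap in 5 of them, the lowest control library being replicate 3.

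Within families the means moved the same way in each of the 8 most abundant. Trimmed reads did not overlap between the diets in 3 of them (exact permutation p = 0.1 each, adjusted 0.373 over 56 shares). Such separation was not particular to trimmed reads. Among complete reads, the share ending at bases 30 to 33 did not overlap in Gly-TCC, at 67.4, 67.9 and 59.3% against 69.9, 72.5 and 70.3%. In His-GTG it did not overlap either, at 51.9, 50.5 and 46.1% against 53.1, 59.2 and 55.7%. Whether trimmed shares separate more often than the other shares was not tested. In His-GTG they were 7.28, 5.91 and 5.43% of the family on control diet and 4.90, 3.55 and 4.44% on low protein diet. In Glu-TTC they were 7.80, 5.63 and 4.84% against 4.58, 2.08 and 3.29%. Gly-TCC, the family of the called trimmed fragment, was trimmed most, at 25.7, 22 and 16.4% against 14.6, 7.42 and 10.5%. In the other 5 families control replicate 3 lay within the low protein range, as in Val-CAC with 11.3, 9.27 and 4.55% against 4.57, 1.52 and 2.92%.

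Of the 10 sequences with the smallest p on the lower side, all of them trimmed, 1 was the Gly-TCC fragment and 3 came from Gly-GCC. These 3 start at base 4 or 5 and stop at base 31, and none was called. They are shown to place their starts, again with capitals at bases that differ from the family's most read base.
Gly-GCC, starts at base 4: ttTgtggttcagtggtagaattctcgcc
Gly-GCC, starts at base 5, G6T: tTgtggttcagtggtagaattctcgcc
Gly-GCC, starts at base 5: tggtggttcagtggtagaattctcgcc
Gly-GCC, most abundant: gcattggtggttcagtggtagaattctc

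The Gly-GCC fragment that starts at base 4 with a substitution (G6T) had 216, 142 and 173 RPM on control diet and 61.1, 32.6 and 40.3 RPM on low protein diet, which is -1.99 on the log2 scale (SE 0.41) at an edgeR adjusted p of 0.180. The one from base 5 with the same substitution had 91.5, 62.1 and 79.6 RPM against 30.2, 18.6 and 24.3 RPM, and the one from base 5 without it had 27.9, 20.8 and 28.7 RPM against 13.9, 10.3 and 11.4 RPM. None of the 3 overlapped between the diets, which their choice by small p makes likely and which is no further support. Of all sequences, 8.25% had all low protein libraries below all control libraries. The diet difference of the last of the 3 was the smallest, at -1.12 on the log2 scale (SE 0.25) against -1.67 (SE 0.38) for the second.

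Complete Gly-GCC fragments leaned the other way. Of 969 sequences 84 had a negative log2 fold change, the median was 0.38, and 169 were higher at an unadjusted p under 0.05, where the share over all sequences was 7.61%. In 238 of them (24.6%) all low protein libraries lay above all control libraries, against 13% of all sequences. None was called. The family's most abundant fragment had 84151, 97284 and 170308 RPM against 117111, 130172 and 121636 RPM, with control replicate 3 above every other library.

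Complete Gly-GCC reads were also summed by end point, and the ends were not tested against each other. Those ending at base 32, the last base before this family's anticodon (bases 33 to 35), came to 5814, 5934 and 10370 RPM on control diet and 11143, 19741 and 15885 RPM on low protein diet. The groups did not overlap, by a narrow margin at control replicate 3, and the sum did not pass (log2 fold change 1.08, SE 0.31, adjusted p = 0.223 by edgeR). Ends at base 29 had a log2 fold change of 0.54, at base 30 of 0.34, at base 31 of 0.25 and at base 33 of 0.30, while ends at base 28, the most frequent, had 0.11 and ends at base 35 had -0.36.

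**Figure D4:**
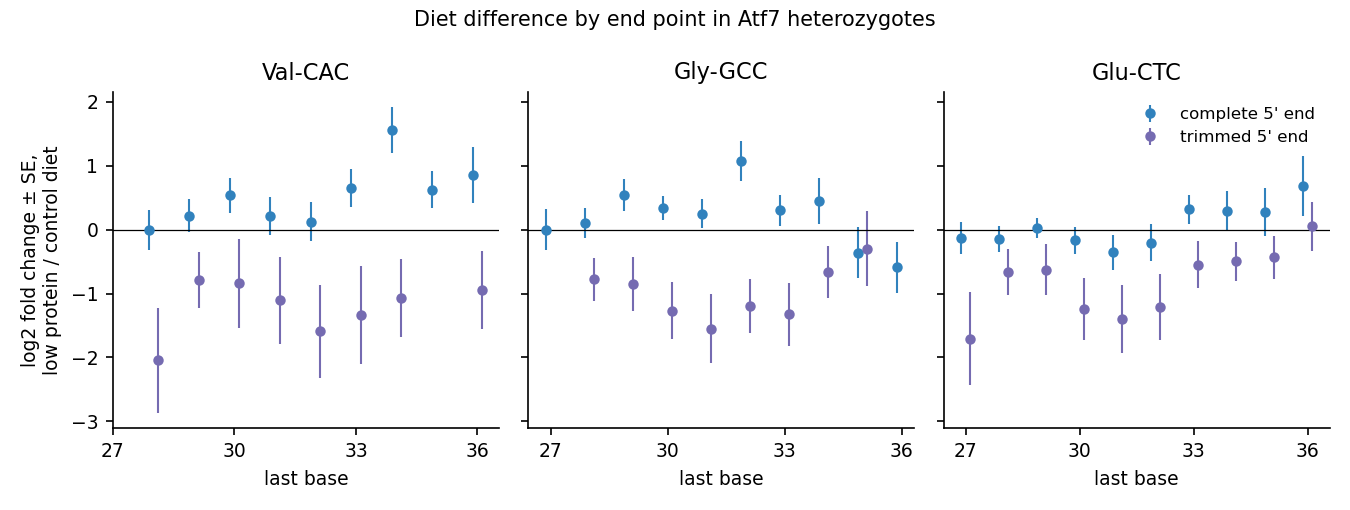
Log2 fold change (low protein over control diet, bars show the SE) of reads summed by last base in the Val-CAC, Gly-GCC and Glu-CTC families, for complete and trimmed 5′ ends in ATF7+/- sperm. Complete reads peak at base 34 in Val-CAC (1.56) and at base 32 in Gly-GCC (1.08), while complete Glu-CTC sums from base 27 to base 35 stay between -0.35 and 0.32, and trimmed sums lie below 0 at all but 1 of the ends shown.

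Several Gly-GCC fragments ending near there were among the sequences with the smallest p on the higher side. The fragment with T25C and the fragment with G1C, both ending at base 32, are shown with a shorter one that ends in another base.
Gly-GCC, T25C: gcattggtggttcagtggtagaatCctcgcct
Gly-GCC, G1C: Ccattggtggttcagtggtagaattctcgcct
Gly-GCC, G29C: gcattggtggttcagtggtagaattctcC
The T25C fragment had 9.32, 8.87 and 9.55 RPM on control diet and 19.9, 36.1 and 25.9 RPM on low protein diet, which is 1.57 on the log2 scale (SE 0.33) at an edgeR adjusted p of 0.180. The G1C fragment had 5.37, 4.53 and 5.46 RPM against 9.94, 20.8 and 13.3 RPM. The G29C fragment had 57.7, 53.8 and 91.0 RPM against 119, 154 and 131 RPM. In all 3 the low protein libraries lay above the control libraries, as in 13% of all sequences. Their choice by small p makes this likely, so it is no further support. None passed, and low protein replicate 2 was the highest. The 10 sequences with the smallest p on the higher side had log2 fold changes of 1.00 to 2.22, and besides those shown they were a Gly-CCC fragment ending at base 33, a Val-CAC fragment ending at base 36 and a further pair from Gly-GCC.

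Over the whole table, reads whose last base differs from the family's most read base were 12.8, 12.2 and 12.8% on control diet and 14.2, 15.3 and 15.5% on low protein diet, without overlap (exact permutation p = 0.1, adjusted 0.373 over 56 shares). The wild type means were 15.5% and 12.5%, in the opposite order, with libraries that overlapped.

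Where fragments end, taken over the whole table, did not separate the diets. Reads ending at base 29 or before were 48.8, 52.7 and 66.8% on control diet and 59.1, 55.2 and 56.2% on low protein diet, where an exact permutation test gave p = 1. Ends at bases 30 to 33 gave 47.9, 44.2 and 30.5% against 38.2, 42.1 and 40.9% (p = 1), and later ends gave 3.31, 3.02 and 2.69% against 2.70, 2.67 and 2.85% (p = 0.3, both exact permutation tests). Control replicate 3 had the most early ends and the fewest middle ones. Without it the early ends were 6.05 percentage points higher and the middle ones 5.63 percentage points lower on low protein diet.

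None of the 19 family totals passed (0%), with a smallest adjusted p of 0.445 by edgeR, and 2 were under an unadjusted p of 0.05. Gly-GCC held 354527, 346741 and 500978 RPM on control diet and 419739, 498981 and 457749 RPM on low protein diet, 0.20 apart on the log2 scale (SE 0.15). Glu-CTC held 450973, 490583 and 368807 RPM against 427124, 377015 and 397362 RPM (-0.13, SE 0.13). These overlapped, as did Val-CAC (0.19, SE 0.19), Lys-CTT (-0.04, SE 0.16), His-GTG (-0.43, SE 0.25) and Glu-TTC (-0.42, SE 0.20) on the log2 scale.

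Of the 19 family totals, only a pair from smaller families did not overlap. With 3 libraries against 3, such a separation has an exact permutation p of 0.1, the smallest possible. Among single sequences, 13% had all low protein libraries above all control libraries, and 8.25% had them all below. The family that starts with ggctcgtt, whose anticodon could not be read, had 2714, 2744 and 1892 RPM against 1791, 1743 and 1813 RPM (log2 fold change -0.46, SE 0.19, adjusted p = 0.445 by edgeR). Gln-CTG had 1543, 1006 and 1540 RPM against 1635, 1695 and 1959 RPM (0.37, SE 0.23, adjusted p = 0.606 by edgeR). Without control replicate 3, 3 family totals passed: Gly-GCC higher (0.39) and Glu-TTC (-0.61) and the family that starts with ggctcgtt (-0.62) lower, with adjusted p from 0.0178 to 0.0179 by edgeR.

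Wild type libraries on the same diets give the comparison its reference. There the 3 called sequences had log2 fold changes of 0.25 (A), 0.37 (T) and -0.07 (Gly-TCC). The Gly-TCC fragment stood at 12.7, 10.6 and 11.6 RPM on control diet and 10.5, 13.6 and 9.12 RPM on low protein diet in wild type, so the wild type diets overlapped. The valine fragment ending in T had 24.7, 37.6 and 58.3 RPM against 55.3, 56.0 and 44.3 RPM in wild type, also with overlap. The difference between the genotypes was tested as an interaction and did not pass for any of the 3 (unadjusted p = 0.0020, 0.0036 and 0.0010, adjusted p = 0.305 for each by edgeR). The interaction contains the same ATF7+/- difference by which the 3 were chosen. Their choice makes small unadjusted p-values likely, so these are no further support.

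For the interaction 0 of 2971 sequences passed (0%), with 292 under an unadjusted p of 0.05 by edgeR, while DESeq2 called 3. The interaction was also passed by 0 family totals and 0 classes in edgeR, with 0 and 6 of them under an unadjusted p of 0.05. In wild type edgeR called 75 sequences (2.52%), 70 of them lower on low protein diet. That count was 77 with TMM factors, 80 with the replicate number as a block on 12 libraries, 0 with limma, 0 among sequences of at least 10 RPM and 327 by DESeq2. It was 577 without wild type control replicate 3, 134 without ATF7+/- control replicate 3 and 0 without any 1 of the other 10 libraries. The trimmed list had a median log2 fold change of -1.66 there, beside -1.11 in ATF7+/-. Trimmed reads were 15.7, 8.81 and 4.35% of the wild type table on control diet and 3.19, 3.72 and 4.13% on low protein diet. So trimmed reads had the lower mean on low protein diet in both genotypes, and no test here showed that the size differs.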

How the data were processed

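The authors deposited read counts per sequence and, beside them, RPM values scaled to each library's total reads. Per the labels' protocols, libraries came from a NEBNext small RNA kit with 36-bp paired-end reads. Reads were placed on mm10 per the submitters' processing notes, and the aligner is not given in the sources used here. Library totals were recovered from the ratio of deposited counts to deposited RPM. The table holds 97.5 to 98.2% of them.

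Sequences were placed on families without gaps (at most 2 mismatches, overlap of at least 15 bases, overhang of at most 6). Family names follow the anticodon read from the bases and RefSeq's tRNA genes, so a name need not be the anticodon of every member. Sequences with a mean of at least 1 RPM, which all had, were fitted with edgeR 4.0.16 quasi-likelihood (R 4.3.3) on all 12 libraries as 4 group means, with the authors' totals as library sizes and Benjamini-Hochberg adjustment. DESeq2 1.42.0, TMM, limma 3.58.1 and left-out libraries were alternatives.

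Sequences named are those called, the 10 smallest p in each direction, the top sequence of the 8 largest families, and 3′ neighbours of called ones. Single Glu-CTC fragments that this rule names are not reported here. Members, lists and tests were chosen with earlier results of these data known. Sums by end point were added after seeing the data. Intervals of counting error cover reads, which without molecular identifiers are not independent molecules.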

Additional observations from a re-analysis of the deposited data

How the results depend on the processing

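Counts of called sequences and classes moved with most settings, those of family totals and of the interaction with few, and the causes were not tested. For sequences (3 by edgeR with the authors' totals), DESeq2 called 45 (25 of them trimmed), TMM factors 0, limma on log2(RPM + 1) 0 and the 6 ATF7+/- libraries alone 0. Leaving out 1 library gave 0 to 71. For classes (1), TMM called 2, DESeq2 7, the filter at 10 RPM 0 and the 6 libraries alone 0, with 0 to 3 without 1 library. For sums by end point (0), TMM called 5 and DESeq2 6, with 0 to 4 without 1 library. Family totals gave 0 to 3 without 1 library, the 3 without control replicate 3. The interaction over sequences gave 3 by DESeq2 and 0 to 39 without 1 library, the 39 without wild type control replicate 3. Whether the replicate numbers pair the samples was not settled. Deviations of same-numbered libraries correlated at 0.414, -0.187 and -0.049, and those of differently numbered ones at -0.454 to 0.392. So few values cannot decide it. With the replicate number as a block, edgeR called 3 sequences (2 of them among the 3) and 1 class on 12 libraries, and 260 sequences (202 trimmed), 31 sums by end point and 0 classes on the 6 libraries. Abundant fragments near 0 turned sign. The log2 fold change of the top Gly-GCC fragment was -0.00054 (TMM) and -0.021 (DESeq2), and -0.12 to 0.44 without 1 library. Top His-GTG gave -0.0057, -0.022 and -0.076 to 0.18, and top Val-CAC -0.016, -0.031 and -0.28 to 0.35 in the same order. Top Gly-TCC ranged from -0.032 to 0.19 without 1 library. Counted over distinct sequences detected instead of reads, which says little because at most 11 of 2971 are at 0 in any ATF7+/- library, the differences were 0.037 percentage points for trimmed, -0.026 for ends at base 29 or before, 0.013 for bases 30 to 33 and 0.012 for later ends. Without 1 library the trimmed difference in reads was -4.89 to -2.33 points, early ends -2.94 to 6.05, middle ends -5.63 to 3.06 and late ends -0.42 to -0.11. Depth limits single rare fragments, as the Gly-TCC one.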

Other observations

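Histidine tRNA carries an extra guanosine before its first base, added after transcription, and its fragments were read with and without that base. Complete His-GTG fragments, which lack it, were mostly lower on low protein diet (113 of 115 negative, median log2 fold change -0.74, none called). Extended ones had a median of 0.00 (52 of 105 negative). Over all sequences 47.4% were negative. In wild type the medians were -0.96 for complete and 0.32 for extended His-GTG fragments, so the lower level of complete ones was not particular to ATF7+/-. The extended share of His-GTG reads was 34.6, 41.6 and 59.7% on control diet and 49.99, 61.7 and 54.7% on low protein diet, with overlap at control replicate 3 (exact permutation p = 0.3). In Glu-CTC the 14 extended fragments were all negative, with a median log2 fold change of -1.07 (-0.28 in wild type), and none was called.

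Complete Lys-CTT sequences had a median log2 fold change of 0.10 (50 of 122 negative), and trimmed ones had -0.94 (44 of 46 negative), none of them called. In wild type these medians were 0.10 and -1.48. Reads ending at base 34 or later were 19.6, 18.1 and 33.8% of complete Lys-CTT reads on control diet and 23.4, 26.2 and 25.7% on low protein diet, with control replicate 3 above all other ATF7+/- libraries. Its ends at base 29 or before did not overlap, at 5.22, 5.04 and 5.51% against 4.77, 4.24 and 4.48% (exact permutation p = 0.1, adjusted 0.373 over 56 shares).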
